A study of Mus musculus with 14 samples.

Results

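The second pellet of a chromatoid body purification was compared with the whole lysate of adult mouse testis from which the purification started. The comparison covers 8108 genes of the 21905 with a gene symbol in the joint expression table, which lists 27024 features in all. A gene entered if its mean over both libraries was at least 5 FPKM (fragments per kilobase of transcript, scaled to the library's fragments) and if it was above 0 FPKM in both. Assembled transcripts without a gene symbol and piRNA clusters were set aside. Each gene has a centred log2 ratio, which is the log2 ratio of (FPKM + 1) in the second pellet to that in lysate, minus the median over all 8108 genes. That median was 0.07 before it was subtracted. A gene is called higher or lower when its centred log2 ratio is at least 1 or at most -1, a difference of 2-fold.

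The series holds 14 RNA-seq libraries in 10 groups, all from testis of C57BL/6 mice at least 6 weeks old, apart from round spermatids of mice labelled hetMIWI. Lysate, supernatant, first pellet and second pellet have 1 library each, and values of the other groups were not used here. Cells freed from the tubules by collagenase were fixed with formaldehyde and broken by sonication in RIPA buffer. A first spin gave the supernatant and the first pellet, and that pellet was sonicated again, passed through a filter and spun into the second pellet, which per the protocol entered the immunoprecipitations for MVH, ACR and IgG. All groups used here share the strain, the age and the fixation. The labels do not say how many animals went into a library, or whether lysate and second pellet came from the same animals. With 1 library in each group there is no replicate error, and every difference below is a size without a test. Sequencing depth is unknown, because the deposited values are FPKM.

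The chromatoid body is a cytoplasmic granule of round spermatids, made of RNA and protein beside the nucleus, and it holds the helicase MVH (gene Ddx4), the PIWI protein MIWI (gene Piwil1), Tudor proteins and factors of mRNA decay. Spermatids store many mRNAs for later translation, since transcription stops as the protamines package their chromatin. Pellets of fixed and sonicated cells can hold pieces of nuclei and sperm tails as well as granules. Small nucleolar RNAs (snoRNAs) work mainly in the nucleolus, where C/D box members guide methylation and H/ACA box members guide pseudouridine formation on ribosomal RNA. Most mouse snoRNAs are cut out of introns of host genes.

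Among the gene lists and classes described here, C/D box snoRNAs had the highest median ratio of second pellet to lysate, and 4 of them are shown because they had some of the lowest q-values of their class in the authors' deposited table. The capitals mark the first GATGA from the 5′ end, which overlaps the C box, and CTGA near the 3′ end, the D box. Sequences are the GENCODE M21 transcripts (GRCm38), written 5′ to 3′ with T for U.
Snord8: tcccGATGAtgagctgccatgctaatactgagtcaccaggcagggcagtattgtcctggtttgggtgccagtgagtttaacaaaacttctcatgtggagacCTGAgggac
Snord85: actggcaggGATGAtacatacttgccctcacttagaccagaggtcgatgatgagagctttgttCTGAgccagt
Snord57: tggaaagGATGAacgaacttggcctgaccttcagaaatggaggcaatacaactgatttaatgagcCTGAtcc
Snord17: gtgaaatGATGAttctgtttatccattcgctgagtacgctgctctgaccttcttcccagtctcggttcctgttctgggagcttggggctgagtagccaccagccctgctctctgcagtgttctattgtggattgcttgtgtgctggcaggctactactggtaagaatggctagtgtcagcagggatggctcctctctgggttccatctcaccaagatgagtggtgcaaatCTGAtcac
Both boxes were found, GATGA within the first 20 bases and CTGA within the last 15 on the transcribed strand, in 41 of 53 C/D box genes in the comparison (77.4%), in 74 of the 97 Snord genes of GENCODE M21 (76.3%) and in 0 of 23 H/ACA box genes. With the strand from GENCODE and the locus from the deposited mm9 coordinates, Snord8 (minus strand) lies in chr14:52817826-52857247 and Snord85 (plus) in chr4:130219274-130337479. Snord57 (plus) lies in chr2:130100148-130110187 and Snord17 (minus) in chr2:144075859-144096638. These loci are wider than the snoRNAs and also hold other transcripts. The U11 and U12 small nuclear RNAs of the minor spliceosome are shown beside them because they were lower in the second pellet, and they are printed without capitals. The deposited locus of Rnu11 (minus strand) is chr4:131825994-131826101, which spans 108 bp against 134 nt in the printed GENCODE transcript. That of Rnu12 (plus) is chr15:82980075-82980224, which spans 150 bp against 151 nt.
Rnu11: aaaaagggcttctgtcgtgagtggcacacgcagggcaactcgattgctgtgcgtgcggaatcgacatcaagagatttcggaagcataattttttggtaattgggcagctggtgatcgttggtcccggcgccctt
Rnu12: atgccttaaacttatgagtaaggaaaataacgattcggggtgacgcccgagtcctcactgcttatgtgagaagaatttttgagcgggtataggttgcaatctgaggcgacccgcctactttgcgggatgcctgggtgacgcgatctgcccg

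Over all 8108 genes, 923 were higher in the second pellet (11.4%), 487 were lower (6.01%) and 6698 were within 2-fold. The middle 50% of genes lay between -0.45 and 0.54 on the centred log2 scale. At 4-fold, 149 genes were higher and 44 lower. Higher genes made up 65.5% of the calls. That share was 81.7% (1270 higher and 285 lower) when the ratio was centred on genes with a mean of at least 50 FPKM, so the balance of higher to lower calls depends on the centring. The median level was 17.5 FPKM in lysate and 20.1 FPKM in the second pellet. Short RNA genes (snoRNA, small nuclear RNA and microRNA symbols) held 90.1% of the summed FPKM in lysate and 97.3% in the second pellet. Without them, 845 of 8006 genes were higher and 483 lower. By the authors' deposited table, 96 genes (1.19% of 8064 with a test) were higher at a q-value under 0.05 and 3 (0.0372%) were lower. Among those genes of the authors' deposited table, 18 were snoRNA or small nuclear RNA genes and 7 were Speer genes. The lower genes of the authors' deposited table included Ccdc136 (548 FPKM in lysate and 241 in the second pellet, q = 0.0036) and Ralgps2 (57.6 and 29.2 FPKM, q = 0.0274).

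**Figure D1:**
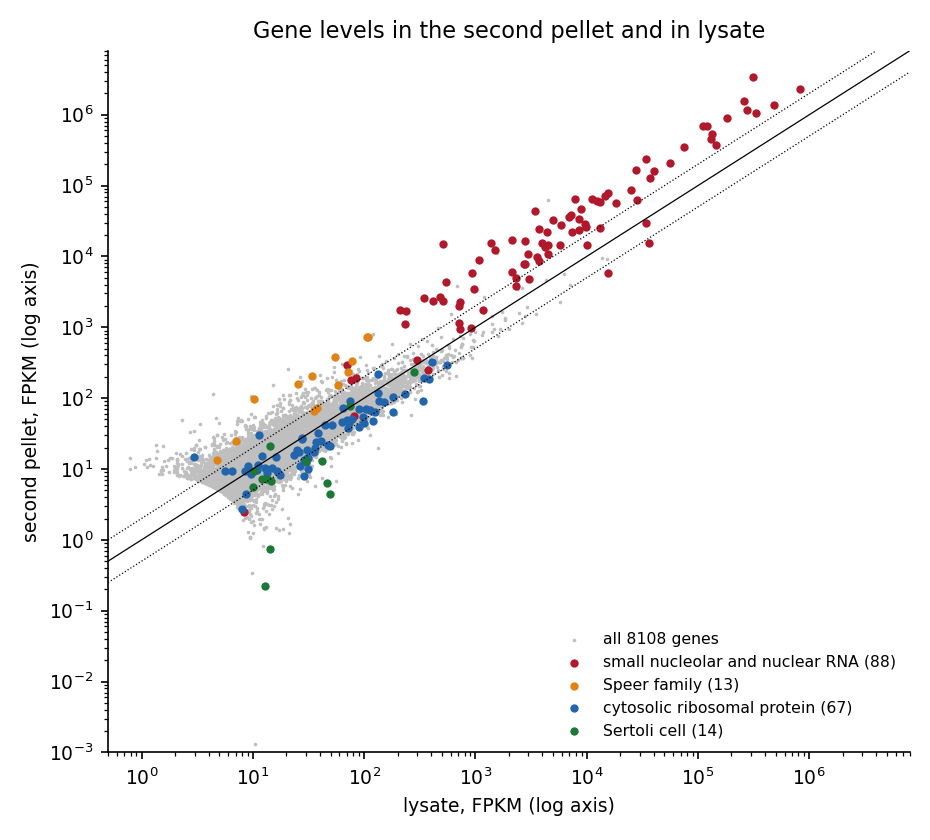
Level of each of the 8108 genes in lysate (x axis) and in the second pellet (y axis), in FPKM on log axes, with 4 gene lists coloured. The solid line marks equal FPKM and the dotted lines 2-fold without centring. Most small nucleolar and nuclear RNA genes lie above the upper dotted line, as do most of the Speer genes, and 7 of 14 Sertoli cell genes were called lower.

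Nuclear and nucleolar RNAs came first. Of 88 small nucleolar and nuclear RNA genes that passed the minimum, of 118 in the table, 73 were higher and 3 lower (median 1.83), against 11.4% and 6.01% of all genes and a median of 0. Snord8 was at 110148 FPKM in lysate and 687947 FPKM in the second pellet, a centred log2 ratio of 2.58 (q = 0.00021 in the authors' deposited table). Snord17 was at 928 and 5915 FPKM, or 2.60. Both were higher in both pellets than in lysate and lower in supernatant than in lysate. The FPKM of genes this short rest on how the authors corrected for a length below that of the fragments, which were cut from the gel at 350 to 500 bp, so levels between snoRNAs and mRNAs are not compared. A snoRNA and the intron that holds it cannot be told apart in these values.

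The classes of small RNA gene differed in their medians. The 53 C/D box genes had a median of 2.15 with 50 higher, the 23 H/ACA box genes a median of 1.46 with 17 higher, and the 7 Cajal body RNA genes a median of 1.18 with 5 higher. None of the 83 was called lower. The median over the C/D box genes, taken in each fraction, was 11059 FPKM in lysate, 4466 in supernatant, 88103 in the first pellet and 47368 in the second pellet. This median thus stood highest in the first pellet and lowest in supernatant, with the second pellet between the first pellet and lysate. Single genes could differ, as Snord82 at 89197 FPKM in the first pellet and 166366 FPKM in the second. The 5 genes with Rnu symbols had a median of -1.31, with 3 lower and 1, Rnu73a, higher (1.42). Rnu73a was not among the 3 genes annotated as small nuclear RNA, which were all lower (median -1.49). Rnu11 was at 36099 FPKM in lysate and 15297 FPKM in the second pellet, a centred log2 ratio of -1.31. Rnu12 was at 15444 and 5770 FPKM, or -1.49. Against supernatant in place of lysate, where Rnu11 was at 19598 FPKM and Rnu12 at 8961 FPKM, the centred ratios were -0.43 and -0.70, both within 2-fold. Some of the largest ratios among the C/D box genes had no call in the authors' deposited table, as Snord45c at 507 and 15092 FPKM (4.82) and Snord61 at 3452 and 43173.5 FPKM (3.58), with q-values of 1.0 and 0.16 there.

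The snoRNAs were set against the genes whose loci they share. Of the 83 snoRNA genes 78 shared a locus with a named gene, and 55 had exactly 1 such gene in the comparison, which gave 42 genes, called hosts here, 34 of them protein coding. The median over the 42 hosts was -0.16, while the median of their snoRNAs was 1.94. Of these hosts 2 were higher and 5 lower, against 11.4% and 6.01% of all genes. In 41 of 42 the snoRNA lay above the host. The exception was Haus6, at 0.74 with its snoRNA at 0.63. At 6 of the 42 the locus also holds another named gene under the minimum or at 0, so the gene compared may not be the one that carries the snoRNA. Among the other 36, a set added after the values were seen, the medians were -0.07 for the host and 1.98 for the snoRNAs, 2 hosts were higher and 3 lower, and the snoRNA lay above the host in 35. The widest gap was at Gnb2l1, which encodes a scaffold protein of the small ribosomal subunit, with the host at -2.93 and its 2 snoRNAs at a median of 1.60. Gnb2l1 itself was at 20.9 FPKM in lysate and 2.01 in the second pellet, and passed the minimum through lysate alone. Rpl37 was at -1.21 and its snoRNA at 2.94, and Rabggtb at 1.61 and its 2 at 3.12. These 4 hosts were chosen after their values were seen.

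**Figure D2:**
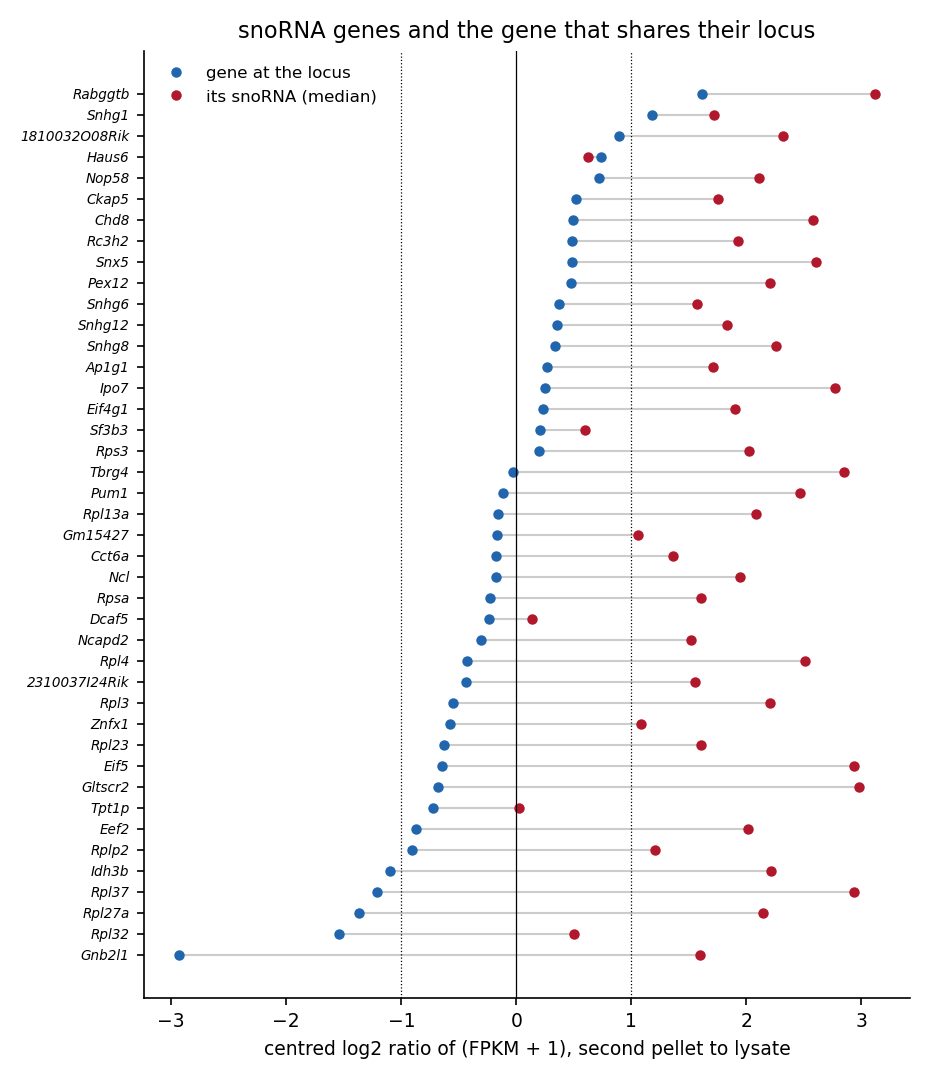
Centred log2 ratio (x axis) of 42 genes that share a locus with a snoRNA (blue) and of the snoRNAs at that locus (red, median where there are several), 1 gene per line. The red point lies to the right of the blue point in 41 of 42 lines, and the hosts spread on both sides of 0.

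Hosts that make no protein were followed separately. Of 11 such host genes 7 passed, and 3 were higher (42.9%) and 0 lower (median 0.44), against 11.4% and 6.01% of all genes. With 7 genes such shares are coarse. Gas5 was at 21.7 FPKM in lysate and 112 in the second pellet (2.25, q = 0.004 in the authors' deposited table), with 162 FPKM in the first pellet. Snhg9 was at 53.6 and 278 FPKM (2.29) and Snhg1 at 18.8 and 46.1 FPKM (1.18). The list median was 1.36 with supernatant as the reference. Among 8 long noncoding and catalytic RNAs of the nucleus, of 15 in the table, 2 were higher (25%) and 1 lower (12.5%). Neat1, the scaffold RNA of paraspeckles (chr19:5842302-5845478), was at 76.7 FPKM in lysate, 70.2 in supernatant, 147 in the first pellet and 242 in the second pellet, a centred log2 ratio of 1.58 (q = 0.033 in the authors' deposited table). Neat1 thus stood highest in the second pellet of the 4 fractions. Rmrp, the RNA of the ribonuclease that cuts ribosomal RNA precursors and mitochondrial primers, was at 2779 FPKM in lysate, 2587 in supernatant, 8114 in the first pellet and 8296 in the second pellet (1.51, q = 0.049 in the authors' deposited table). Rpph1, the RNA of ribonuclease P and a relative of Rmrp, was at 2619 and 1151 FPKM, or -1.25. Malat1, an RNA of nuclear speckles, was at 626 and 679 FPKM (0.05), and Kcnq1ot1, the imprinted antisense transcript of Kcnq1, at 4.29 and 7.46 FPKM (0.61). These nuclear RNAs did not share a direction.

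Single mRNA genes with the largest differences came next. Adam23, a disintegrin without protease activity known from neurons (chr1:63492478-63643089), was at 20.6 FPKM in lysate, 13.9 in supernatant, 148 in the first pellet and 256 in the second pellet, a centred ratio of 3.51 or 11.4-fold, and had the lowest q-value of any mRNA gene in the authors' deposited table (5.7e-08). The other Adam genes did not go with it. Of 22 that passed, Adam23 was the 1 called higher and 4 were lower (18.2%, against 6.01% of all genes). The lower ones include the sperm surface genes Adam2 (217 and 88.1 FPKM, -1.36) and Adam5 (505 and 215 FPKM, -1.30). Tgif1, a homeobox repressor, was at 29.7 and 136 FPKM (2.09, q = 3.1e-06 in the authors' deposited table). Gm52 was at 9.59 and 106 FPKM (3.27), B4galt4, a galactosyltransferase, at 3.38 and 42.7 FPKM (3.25), and Trim43b at 2.73 and 32.8 FPKM (3.11). In Adam23 and these 4 genes the lysate and supernatant were low and both pellets high. Defb14, a beta-defensin, was at 2.33 and 48.5 FPKM (3.83) but at q = 0.20 in the authors' deposited table. Gip (1.36 and 21.7 FPKM), Lhb, the beta chain of luteinizing hormone (2.97 and 34.3 FPKM), and Pet117 (4.64 and 52.6 FPKM) had ratios of 3.08 to 3.20 and q-values of 0.29 to 0.39 in the authors' deposited table. B4galt4, Trim43b and these last 4 genes were under 5 FPKM in lysate and passed the minimum through the second pellet alone. AF357355, a snoRNA in the RefSeq annotation that lies outside the short RNA symbols, was at 4492 and 61700 FPKM (3.71).

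**Figure D3:**
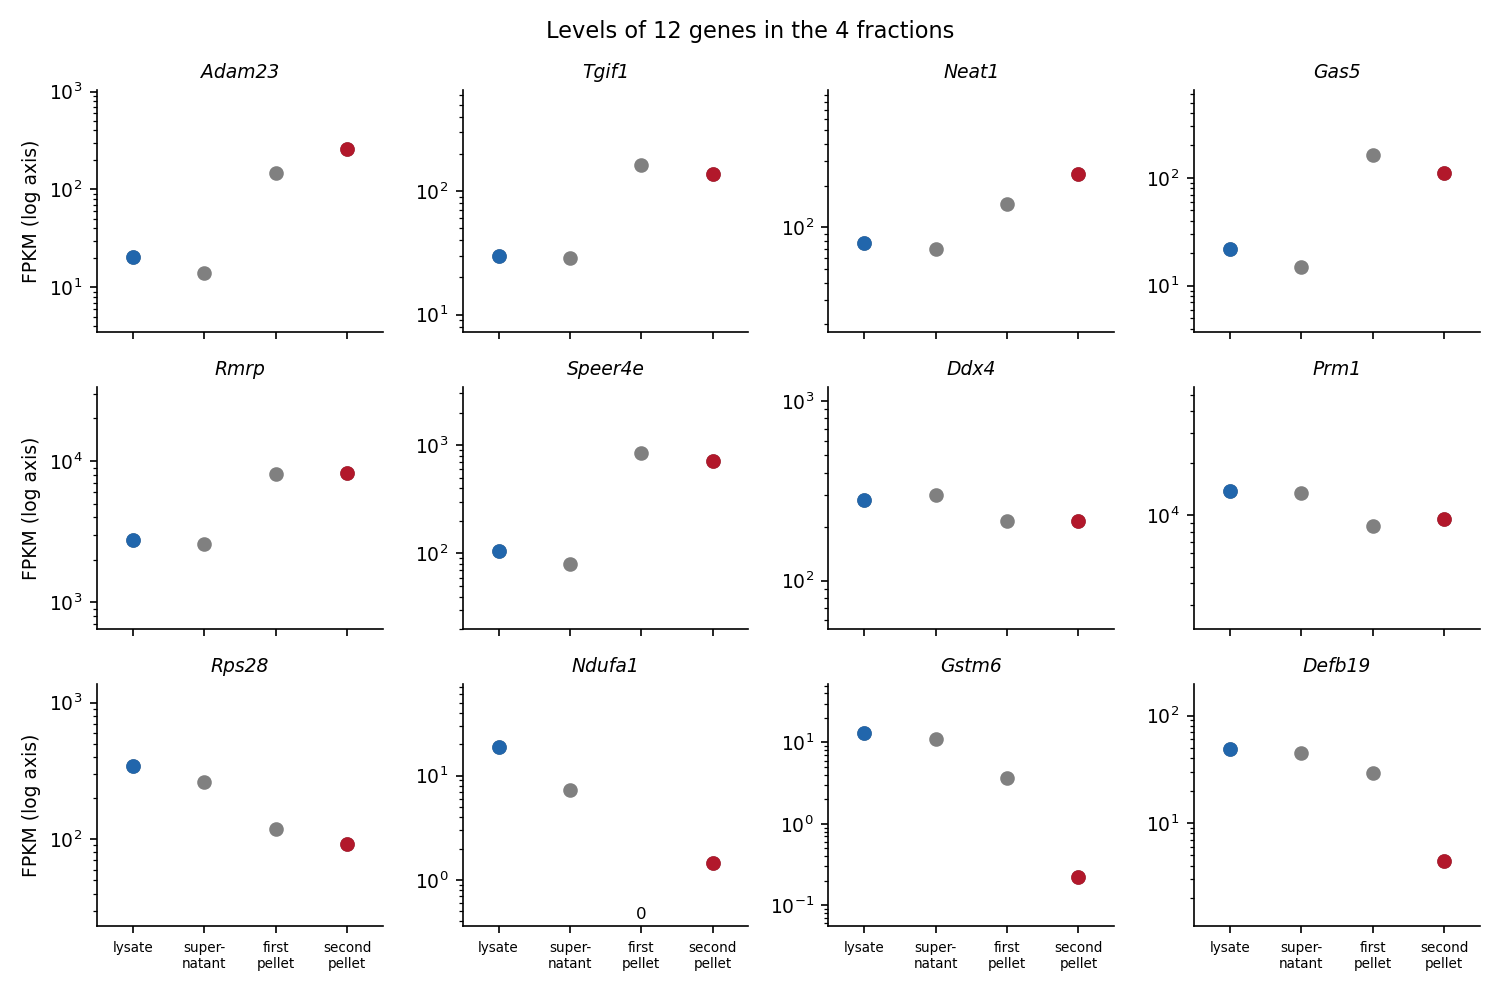
Level of 12 genes (y axes, FPKM on log axes) in lysate (blue), supernatant, first pellet and second pellet (red) on the x axis, 1 value per fraction. Adam23, Tgif1, Neat1, Gas5, Rmrp and Speer4e are higher in both pellets than in lysate and supernatant, while Gstm6 and Defb19 are at 0.222 and 4.37 FPKM in the second pellet and higher in each of the other fractions.

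The Speer family, germ cell genes in clusters mainly on chromosome 5 that encode glutamate-rich proteins, stood high as a whole. All 13 genes in the table passed, 11 were higher and 0 lower, against 11.4% and 6.01% of all genes, and the median was 2.00. Speer4e (chr5:14933631-14938475) was at 105 FPKM in lysate, 80.0 in supernatant, 854 in the first pellet and 718 in the second pellet, a centred ratio of 2.69 (q = 3.1e-05 in the authors' deposited table). Speer4d was at 109 and 734 FPKM (2.67), Speer4f at 54.3 and 387 FPKM (2.74), Speer4a at 25.7 and 160 FPKM (2.53) and Speer3 at 10.3 and 97.9 FPKM (3.07). Speer2 (0.80) and Speer5-ps1 (0.84) were within 2-fold. The GENCODE transcripts of Speer4d and Speer4e were 96.4% identical over the aligned bases and those of Speer2 and Speer3 90% identical, so reads may have been split or shared between copies and the genes are not independent. With the lysate values of the separate gene table the centred ratio of Speer3 was 0.51 and that of Speer2 was -0.22. Chromosome 5 had 14.5% of 531 genes higher, outside short RNA genes, and 13% of 522 without the Speer list.

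Genes for zinc finger proteins with Zfp symbols, most of them DNA-binding repressors, leaned to the second pellet. Of 132 that passed, of 363 in the table, 27 were higher (20.5% against 11.4%) and 2 lower (median 0.38). In 17 of the 132 the lysate level was under 5 FPKM and in 1 the second pellet level was, so part of the list entered through the second pellet alone. Zfp87 was at 15.04 FPKM in lysate, 6.98 in supernatant and 77.1 in the second pellet (2.22, q = 0.0097 in the authors' deposited table). Zfp58 was at 16.4 and 79.8 FPKM (2.15) and Zfp184 at 14.4 and 61.5 FPKM (1.95). Zfp541, a germ cell chromatin protein, was at 59.9 and 33.1 FPKM, or -0.90. Immediate early genes, switched on within minutes of a stimulus, had 9 of 26 past the minimum. Of these 5 were higher (55.6%) and 0 lower (median 1.07), against 11.4% and 6.01% of all genes. Of the 5 genes with at least 5 FPKM in lysate, Klf4, a zinc finger factor, was higher at 17.6 and 41.9 FPKM (1.14), while Egr3, Jun, Jund and Nr4a1 were within 2-fold, with ratios of 0.12 to 0.71. The other 4 were under 5 FPKM in lysate and so passed the minimum through the second pellet alone, among them Ier5 at 1.65 and 10.9 FPKM (2.10), Klf2 at 2.08 and 10.7 FPKM (1.86) and Dusp1, a phosphatase of MAP kinases, at 4.73 and 20.6 FPKM (1.85). With genes from a mean of 1 FPKM upward the list median was 0.33.

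Genes named only for testis cDNA clones were described by clone series. Of 223 genes named for clones in 1 testis series (symbols beginning with 49) that passed, of 279, 40 were higher (17.9%) and 12 lower (5.38%), and the median was 0.23. In 12 of these 223 the lysate level was under 5 FPKM and in 2 the second pellet level was. Part of this series thus entered through the second pellet alone. Of 213 genes named for the other testis clone series (symbols like 1700096J18Rik), of 231, 24 were higher (11.3%) and 11 lower (5.16%), and the median was 0.11, so that both shares were close to those over all genes. The lowest of that second series was 1700096J18Rik, at 21.7 FPKM in lysate, 12.5 in supernatant, 32.5 in the first pellet and 1.67 in the second pellet, or -3.15. This gene was under 5 FPKM in the second pellet and passed the minimum through lysate alone.

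Ribosomal protein genes stood low. Of 67 that passed, of 86, 20 were lower (29.9% against 6.01%) and 2 higher (median -0.67). Rps28 was at 341 FPKM in lysate, 261 in supernatant, 119 in the first pellet and 92.6 in the second pellet, a centred ratio of -1.94. Rpl10a was at 29.1 and 8.06 FPKM (-1.80), Rpl39l, a testis paralogue, at 31.6 and 10.05 FPKM (-1.63) and Rpl32 at 180 and 64.3 FPKM (-1.54). Rps23 went the other way, at 2.95 and 14.8 FPKM (1.93), as did Rpl27 at 11.5 and 30.2 FPKM (1.26). Rps23 was under 5 FPKM in lysate and passed the minimum through the second pellet alone. Many ribosomal protein genes have processed copies elsewhere in the genome, so single values are uncertain. No gene of this list passed q under 0.05 in the authors' deposited table. Rpl26 was listed at 0 in the second pellet and at 18.2 FPKM in lysate, and is given no ratio. Among 57 mitochondrial ribosomal protein genes 9 were lower (15.8%) and 3 higher (5.26%, median -0.23), against 6.01% and 11.4% of all genes.

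Among respiratory chain genes of the nucleus 20 of 75 that passed were lower (26.7% against 6.01%) and 2 higher, and the median was -0.49. Ndufa1, of complex I, was at 18.8 FPKM in lysate, 7.22 in supernatant and 1.45 in the second pellet (-3.08), and was listed at 0 in the first pellet. Atp5e, of the ATP synthase, was at 134 and 19.8 FPKM (-2.77) and Ndufa4 at 12.6 and 1.45 FPKM (-2.54). Ndufa1 and Ndufa4 were among 5 genes of this list under 5 FPKM in the second pellet, which passed the minimum through lysate alone. Cox8c, a testis form of a complex IV subunit, was higher at 260 and 577 FPKM (1.08), and so was Cox6a2, a heart and muscle form, at 6.04 and 16.7 FPKM (1.26). Proteasome subunit genes were less spread, with 2 of 34 higher and 2 lower (5.88% each) around a median of -0.41. Their lower share was near the 6.01% of all genes, of which 11.4% were higher. Psmd5, 1 of the higher ones, was at 3.84 FPKM in lysate and passed the minimum through the second pellet alone. Chaperone genes had a median of -0.58 with 4 of 45 lower (8.89%, against 6.01% of all genes). All 4 belong to the folding machinery of the cytosol or endoplasmic reticulum: Cct7 (144 and 59.7 FPKM, -1.33), P4hb (32.1 and 13.2 FPKM, -1.29), Cct5 (224 and 111 FPKM, -1.08) and Tcp1 (693 and 350 FPKM, -1.05). Hsf2, a heat shock transcription factor, was higher at 17.01 and 45.9 FPKM (1.31).

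Clustered histone genes, whose mRNAs mostly lack poly(A) tails, had 14 of 36 lower (38.9% against 6.01%), 2 higher and a median of -0.49. Hist1h2ba, the testis H2B of the chromatin that protamines replace, was at 888 and 408 FPKM (-1.19), and Hist1h1t, the linker histone of spermatocytes, at 111 and 54.7 FPKM (-1.07). Hist2h2ab had the lowest ratio (30.7 and 6.73 FPKM, -2.10), and Hist2h2bb the highest (2.65 and 14.5 FPKM, 2.02). Hist2h2bb was under 5 FPKM in lysate and passed the minimum through the second pellet alone. Histone copies are near-identical, so reads may have been shared between them.

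**Figure D4:**
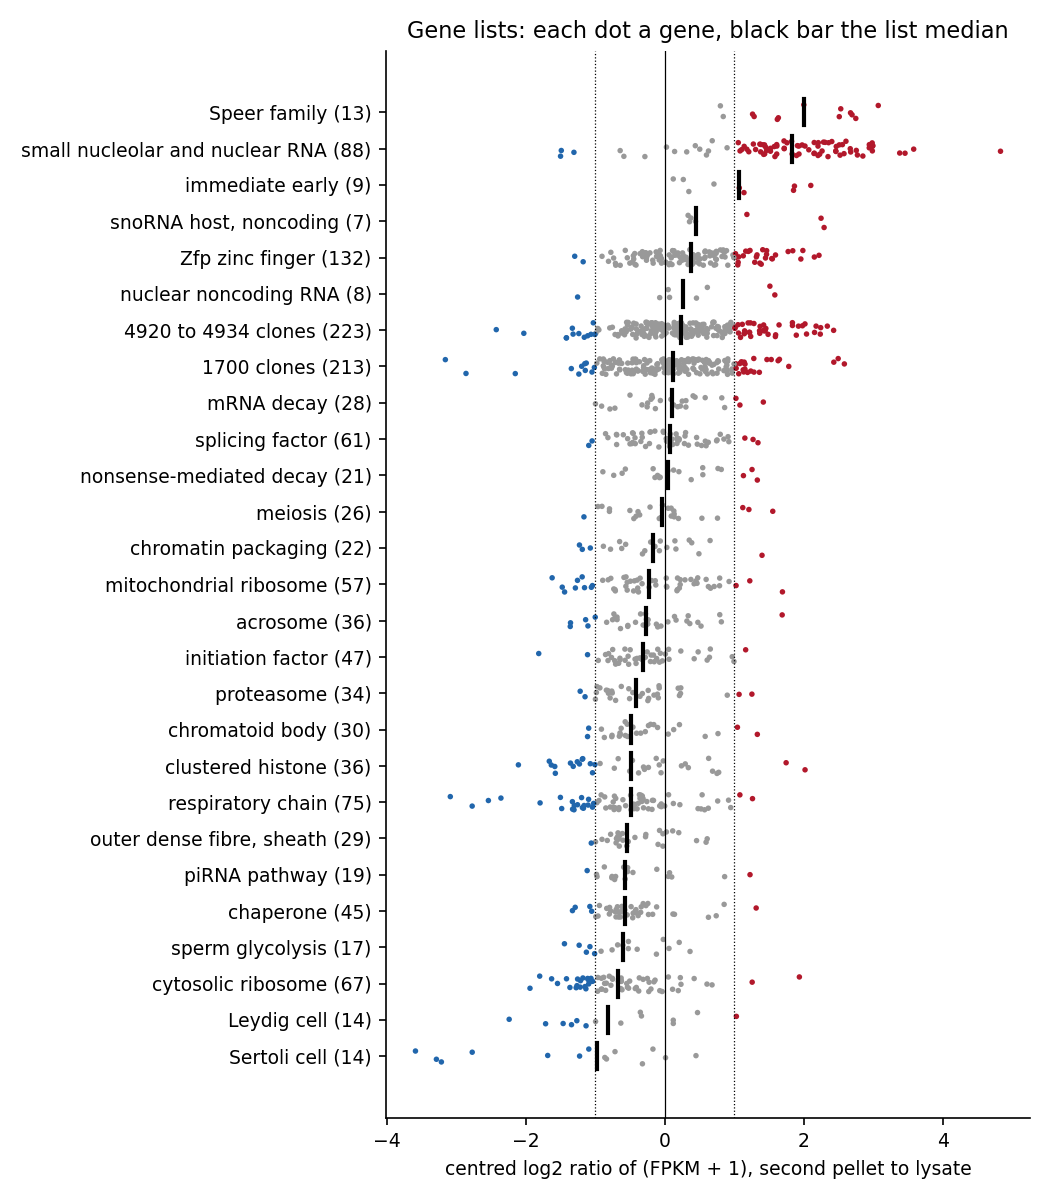
Centred log2 ratio (x axis) of each gene in 27 gene lists (y axis, number of genes past the minimum in brackets), coloured red where called higher and blue where called lower, with a black bar at the list median. List medians run from 2.00 for the Speer family to -0.98 for Sertoli cell genes, and in most lists between these the majority of genes are grey, within 2-fold.

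The mRNAs of the chromatoid body's own proteins were mostly within 2-fold in the second pellet, as were 6698 of all 8108 genes. Of 30 such genes that passed, of 34, 2 were higher and 2 lower (6.67% each, median -0.48). The shares over all genes were 11.4% higher and 6.01% lower. Ddx4 was at 282 FPKM in lysate, 298 in supernatant, 215 in the first pellet and 215 in the second pellet (-0.46). Piwil1 was at 106 and 65.4 FPKM (-0.76). Ddx25, a helicase needed for spermatid translation, was at 174 and 84.8 FPKM (-1.09), and Eif2c4, an Argonaute gene, at 7.53 and 3.14 FPKM (-1.11). Upf2, of nonsense-mediated decay, was at 34.5 and 92.4 FPKM (1.33), and Tnrc6a, a silencing partner of Argonaute, at 3.64 and 9.03 FPKM (1.04). Tnrc6a was under 5 FPKM in lysate and Eif2c4 in the second pellet, so each passed the minimum through the other library alone. Of 19 piRNA pathway genes, several shared with the list above, 1 was higher and 1 lower (5.26% each, median -0.57). Exd1, a partner of piRNA biogenesis, was at 5.80 and 15.7 FPKM (1.22), and Gpat2, a mitochondrial membrane enzyme, at 13.3 and 5.92 FPKM (-1.12).

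Genes of mRNA fate stayed near the median. Of 21 genes of nonsense-mediated decay and the exon junction complex 3 were higher (Upf2, Pnrc2 and Magohb) and 0 lower (median 0.04). The higher share was 14.3%, against 11.4% of all genes, of which 6.01% were lower. Magohb was at 2.70 FPKM in lysate and passed the minimum through the second pellet alone. Of 28 genes of mRNA decay 3 were higher (10.7%, near the share of all genes) and 0 lower (median 0.11). Tob1, which recruits a deadenylase, was at 18.7 and 54.1 FPKM (1.42) and the deadenylase Parn at 8.28 and 19.6 FPKM (1.08). Ddx6, a helicase of decay granules, was at 25.3 and 12.8 FPKM (-0.997, just inside 2-fold). Genes of mRNA storage had a median of -0.37 with 1 of 29 higher and 1 lower (3.45% each). Initiation factor genes had a median of -0.32 with 1 of 47 higher (2.13%) and 2 lower (4.26%). Splicing factor genes had a median of 0.07 with 3 of 61 higher (4.92%) and 2 lower (3.28%).

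Genes of sperm structure were mostly within 2-fold, as were 6698 of all 8108 genes, and their list medians lay below 0. Over all genes 11.4% were higher and 6.01% lower. The packaging proteins gave the most abundant mRNAs outside short RNA genes: Prm1 was at 13795 FPKM in lysate and 9409.6 in the second pellet (-0.62), Tnp1 at 15259 and 9310 FPKM (-0.78), Prm2 at 6217 and 5659 FPKM (-0.20) and Tnp2 at 4322 and 4621 FPKM (0.03). Of 22 genes of chromatin packaging 1 was higher (4.55%) and 3 lower (13.6%). The median was -0.17, which turned to 0.01 when centred on genes of at least 50 FPKM. Ep300, an acetyltransferase, was the higher one at 16.7 and 47.9 FPKM (1.40). Of 29 genes of the outer dense fibres and fibrous sheath 0 were higher and 1 lower (3.45%, median -0.55). Of 17 sperm glycolysis genes 0 were higher and 5 lower (29.4%, median -0.60). Pgam2 was at 580 and 223 FPKM (-1.44), Ldhc, the sperm lactate dehydrogenase, at 3496 and 1560 FPKM (-1.23) and Pgk2 at 460 and 239 FPKM (-1.01). Of 36 acrosome genes 1 was higher (2.78%) and 5 lower (13.9%, median -0.28). Pick1, which takes part in acrosome formation, was at 37.7 and 130 FPKM (1.69, q = 0.013 in the authors' deposited table), and Crisp2, a cysteine-rich secretory protein of sperm, at 1606 and 764 FPKM (-1.14). Acr, the acrosomal protease whose antibody the study also used, was at 156 and 227 FPKM (0.47).

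The remaining lists of structure held few calls, to be read beside 11.4% higher and 6.01% lower over all genes. Of 22 genes of axonemal dyneins and intraflagellar transport 0 were higher and 1 lower (4.55%). Their median was -0.19, which turned to 0.09 with the lysate values of the separate gene table. Of 17 sperm channel and exchanger genes 2 were higher (11.8%) and 1 lower (5.88%), near the shares over all genes (median -0.40). Trpc2, 1 of the higher ones, was at 4.42 FPKM in lysate and passed the minimum through the second pellet alone. Of 37 kinesin and cytoplasmic dynein genes 0 were higher and 1 lower (2.7%, median -0.09). Of 44 tubulin and actin genes 2 were higher (4.55%) and 6 lower (13.6%). Of 33 genes of the nuclear lamina and pore 2 were higher (6.06%) and 1 lower (3.03%). The medians of these 2 lists, -0.18 and -0.13, turned to 0.00 and 0.05 when centred on genes of at least 50 FPKM. Of 26 haploid retrogenes 0 were higher and 2 lower (median -0.48, which turned to 0.02 with the separate lysate table), and of 71 ubiquitin pathway genes 3 were higher and 1 lower (median -0.04). The Adam list, described above with Adam23, had a median of 0.13, which turned to -0.02 from a mean of 1 FPKM upward.

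Regulators and meiotic genes had medians near 0. Of 20 transcription regulators of spermatids 3 were higher, Foxj1 (11.2 and 29.9 FPKM, 1.27), Taf7l (15.5 and 37.3 FPKM, 1.15) and Sox30 (48.97 and 109.9 FPKM, 1.08), and 0 were lower. Of 26 meiosis genes 3 were higher, among them Brca1, of homologous repair (9.32 and 30.7 FPKM, 1.55), and 1 was lower, the helicase gene Hfm1 (12.02 and 5.10 FPKM, -1.16). The median was -0.03 for the regulators and -0.05 for the meiosis genes. Higher genes made up 15% of the regulators and 11.5% of the meiosis genes, against 11.4% of all genes. Lower genes made up 3.85% of the meiosis genes, against 6.01% of all genes. The meiosis shares were thus near those over all genes. Of 11 multicopy genes of the X and Y chromosomes past the minimum, of 45, 2 were higher (18.2%) and 0 lower. Sly was at 3.55 and 12.7 FPKM (1.53) and Cypt4 at 9.54 and 60.0 FPKM (2.47), with near-identical copies of each. Sly was under 5 FPKM in lysate and passed the minimum through the second pellet alone. MicroRNA genes were few, with 14 of 568 past the minimum, 5 of them higher (35.7%) and 1 lower (7.14%). Their median was 0.45, which turned to -4.25 with genes listed at 0 kept. A further 35 were listed at 0 in 1 of the libraries. Libraries cut at 350 to 500 bp do not measure the mature microRNA.

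Genes of Sertoli and Leydig cells had the lowest medians of the 41 lists. Of 14 Sertoli cell genes that passed, of 33, 7 were lower and 0 higher (median -0.98), against 6.01% and 11.4% of all genes. Ptgds, a prostaglandin synthase, was at 46.4 FPKM in lysate and 6.29 in the second pellet (-2.77). Gstm6, a glutathione transferase, was at 13.0 FPKM in lysate, 11.1 in supernatant, 3.65 in the first pellet and 0.222 in the second pellet (-3.58). Defb19, a beta-defensin, was at 48.9, 44.8, 29.1 and 4.37 FPKM in the same order (-3.28), and Aard at 14.35, 15.997, 8.67 and 0.737 FPKM (-3.21). These last 3 were under 5 FPKM in the second pellet, so they passed the minimum through lysate alone, as did 1 of the Leydig genes. All 4 stood lowest in the second pellet of the 4 fractions, and none had a q-value under 0.05 in the authors' deposited table (0.20 to 0.38). Tjp1, a scaffold of tight junctions, was at 14.3 and 20.9 FPKM (0.45). Among the 14 genes of Leydig cells 6 were lower and 1 higher (median -0.81), against the same 6.01% and 11.4%. The steroid enzymes Cyp17a1 and Hsd17b3 were at 139.5 and 66.2 FPKM (-1.13) and at 25.3 and 7.40 FPKM (-1.71). Insl3 (-0.34), Fdx1 (-0.35) and Star (-0.63) were within 2-fold. Of the 14, 4 lay above 0: Scarb1 and Nr4a1 (both 0.12), Fdxr (0.47) and Por, the 1 called higher (1.03). Por and Fdxr were at 2.97 and 4.76 FPKM in lysate and passed the minimum through the second pellet alone. Of 7 peritubular, vascular and blood genes that passed, of 33, 0 were higher and 2 lower (median -0.31), and 2 of 25 spermatogonia genes passed, both within 2-fold. In whole tissue and its fractions, fewer cells of a type and less RNA per cell cannot be told apart.

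Marker sums describe the cells behind the fractions. The 8 spermatid markers summed to 43869 FPKM in lysate and 31881 FPKM in the second pellet with none at 0, and the 6 spermatocyte markers to 4190.4 and 2002 FPKM. Most of this spermatocyte sum was Ldhc, at 3496 and 1560 FPKM. The centred ratios of Ldhc, Pgk2 and Piwil1 were -1.23, -1.01 and -0.76. Those of Sycp1, Sycp3 and Hormad1 were 0.05, 0.09 and -0.03, so the 6 markers did not fall alike. The 6 Sertoli markers in the table summed to 49.7 and 24.2 FPKM, with 1 at 0 in each, and the 5 Leydig markers to 282 and 162 FPKM. The 5 spermatogonia markers summed to 9.61 and 4.89 FPKM, and the 4 blood markers to 64.2 and 40.9 FPKM. The 3 peritubular markers (9.82 and 13.9 FPKM), 3 vascular markers (5.35 and 7.65 FPKM) and 4 macrophage markers (7.86 and 9.70 FPKM) summed to more in the second pellet, all from low levels. Spermatid markers had the highest sum in both libraries, and the part of cell composition in the differences above was not tested.

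The genes called lower were shorter than the rest. Of the members 8010 (98.8%) matched GENCODE M21, and 7654 were protein coding. The median transcript was 1781 nt for the 457 lower coding genes, 2546 nt for the 784 higher ones and 2696 nt for all, and the median 3′ UTR was 334, 757 and 720 nt. The share called lower went from 21.3% of 94 coding genes under 500 nt, through 13.4%, 8.53%, 4.93% and 2.63%, to 1.37% of 801 coding genes over 6000 nt. The share called higher moved less, from 11.7% to 8.74%. The median transcript was 858 nt in the ribosomal protein list, 838 nt in the respiratory chain list and 514 nt in the clustered histone list. Among coding genes under 1000 nt, 28.2% of 103 in the ribosomal, mitochondrial ribosomal or respiratory chain lists were lower, and 12.3% of 653 outside them. Among coding genes of 1000 nt or more these shares were 20% of 95 and 4.84% of 6803. Lengths were not matched within either range, and the share called lower also fell with length from 1000 nt upward. The part of length in each single list was not tested.

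Exon number and abundance also moved with the calls. Coding genes with 2 exons were higher in 21.4% of 323 cases, those with 3 or 4 in 15.9% of 999 and those with 20 or more in 6% of 1216, while single-exon genes were higher in 11.4% of 263. Outside short RNA genes, the median centred ratio was 0.07 in 2102 genes of 5 to 10 FPKM and -0.60 in 60 genes over 500 FPKM, of which 23.3% were lower. Abundant mRNAs thus stood lower in the second pellet than scarce ones on this scale. Summed FPKM outside the short RNA symbols was 440308 in lysate and 471703 in the second pellet. Both sums include the snoRNA AF357355 at 4492 and 61700 FPKM, which rose by more than the sum did. The sums therefore do not show a rise of mRNA. By chromosome the median ran from -0.10 on chromosome 11 to 0.08 on chromosome 14 among autosomes and was 0.24 on the X, where 14.1% of 184 genes were higher and 8.15% lower. By annotated type, 54 long intergenic noncoding RNA genes had a median of 0.36, with 9 higher (16.7%) and 2 lower (3.7%). The median of 26 processed transcripts was 0.39, with 10 higher (38.5%) and 3 lower (11.5%). That of 62 processed pseudogenes was -0.17, with 6 higher (9.68%) and 9 lower (14.5%). Over all genes 11.4% were higher and 6.01% lower.

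**Figure D5:**
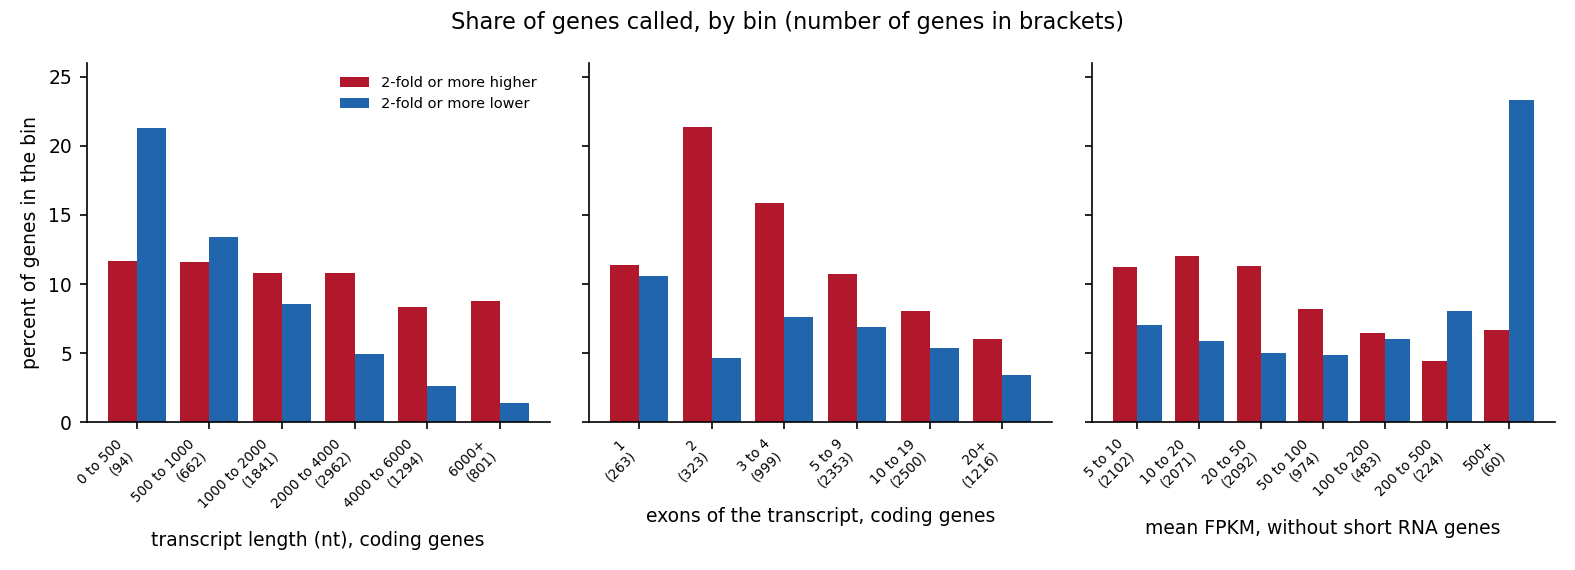
Percent of genes called higher (red) and lower (blue) in the second pellet by transcript length in nt, by number of exons and by mean FPKM (x axes, number of genes per bin in brackets). The lower share falls from 21.3% in the shortest coding genes to 1.37% in the longest, the higher share peaks at 21.4% for genes of 2 exons, and 23.3% of genes over 500 FPKM are lower.

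Genes at the limits of the rule show how close the calls lie. The nearest genes inside the minimum were Fam46b, Tmed3 and Mcat, at means of 5.001, 5.001 and 5.004 FPKM, and the nearest outside were Zfp369, Tlr11 and 2410127L17Rik, at 4.99, 4.999 and 4.9995 FPKM. The last genes called higher, 2700094K13Rik, Prdm4 and Gm11213, had ratios that round to 1.00, as did 2810004N23Rik, Znhit3 and Chrna5 on the other side. Adam3, a sperm surface gene at 415 and 217 FPKM, was the lower gene nearest to the threshold (-1.0004), and Slc39a6 the nearest outside it (-0.999). A further 60 genes passed the mean but were listed at 0 in 1 library, 17 in lysate and 43 in the second pellet, and 48 of them were short RNA genes. Among the other 12, the ones at 0 in the second pellet include Uqcr10 (33.0 FPKM in lysate), Romo1 (18.4) and Lsm7 (10.3), which were at 9.01, 26.4 and 6.48 FPKM in the first pellet. A value of exactly 0 can be a failed estimate, so these genes have no ratio. Members that share a locus with another member numbered 787, and their reads may have been shared.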

How the data were processed

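RNA-seq of testis fractions was analysed from the FPKM values that the authors deposited in a joint table of 5 conditions, with 1 value per gene and condition per the file headers. The fifth condition (MVH IP) has 1 value for 3 libraries and was not used here, so genes furthest from both the first pellet and MVH IP were taken against the first pellet alone. The authors used TopHat and Cuffdiff on mm9, per the submitters' processing notes; their versions, the annotation, any scaling between conditions and the use of strand are not stated in the labels or files, and a gene cannot be told from an overlapping or antisense one. Cuffdiff q-values and p-values are the authors' own, taken from the deposited table per the file headers and counted at q under 0.05. Lysate and second pellet (1 library each) were compared as stated in the report, with a pseudocount of 1 FPKM, a minimum mean of 5 FPKM and centring on the median, which understates the change of low genes. The lysate FPKM of a separately scaled gene table deposited by the authors served as an alternative. FPKM give no depth, no error and no test.

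The members and the 41 gene lists were chosen with earlier results of these data known. Genes named by rule were the 10 highest and lowest outside short RNA genes, the 3 highest and lowest short RNA and microRNA genes, the 10 most abundant, the 5 of lowest q in each direction, marker genes, genes furthest from the first pellet, genes nearest the thresholds, lists of up to 12 genes in full, and the 4 highest, lowest and most abundant genes of longer lists. Genes outside that rule were named after their values were seen. They are Snord8, Snord85, Snord57, Snord17, Snord82, Rnu73a, Acr, Speer4a, the snoRNA hosts and the genes listed at 0. Some items are not reported here. Transcript lengths, types and sequences came from GENCODE M21, matched by symbol. Python 3.11.15, pandas 2.3.3, numpy 2.4.6 and Biopython 1.88 were used, and the computation was tested on simulated data. Alternatives were other pseudocounts, minimum means, centring, references and the genes listed at 0.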

Additional observations from a re-analysis of the deposited data

How the results depend on the processing

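No paired analysis was possible because each group has 1 library. With a pseudocount of 5 FPKM 569 genes were higher and 250 lower, all of them among the 923 and 487 of the report. From a mean of 1 FPKM upward 923 genes were lower of 12675, and from 10 FPKM 308 of 6005. Centred on genes of at least 50 FPKM 285 were lower, and the list medians turned to 0.0067 for chromatin packaging, 0.0008 for tubulin and actin genes and 0.0463 for lamina and pore genes. With the lysate value of the separate gene table, which lists genes from 5 FPKM upward, 520 of 5127 genes were higher and 331 lower. Of the 367 higher genes of the report listed there 342 were higher again, and of the 353 lower ones 211 were lower again, while 3 of the higher genes were now lower and 1 of the lower genes was now higher. That table gave list medians of 1.3924 for noncoding snoRNA hosts, 0.0874 for axoneme transport (main value -0.19) and 0.017 for retrogenes (main value -0.48). With supernatant as the reference the medians were 1.3581 for noncoding snoRNA hosts and 3.0686 for small nucleolar and nuclear RNA genes, and 770 of the 905 higher and 345 of the 452 lower genes measured there were called again. The microRNA median was -4.253 with genes listed at 0 kept, the Adam median -0.0197 (main value 0.13) from a mean of 1 FPKM, the immediate early median 0.3253 from a mean of 1 FPKM, and the peritubular, vascular and blood median -0.9436 from a mean of 10 FPKM. By the authors' deposited table, 40 genes had a q-value under 0.01. The cause of these shifts was not tested. Without centring, which shifts each ratio by 0.07 on the log2 scale, 1037 genes were higher and 398 lower. Depth is unknown, so differences of scarce genes carry an error that cannot be given.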

Other observations

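The piRNA clusters and the assembled transcripts without a gene symbol were set aside above and are described here, centred on the same median of genes. piRNA clusters are genomic regions whose long transcripts are cut into the small RNAs that guide PIWI proteins. Of 197 clusters 180 passed the minimum of 5 FPKM, 9 stood higher in the second pellet (5%) and 4 stood lower (2.22%), against 11.4% and 6.01% of all genes, and their median was 0.22. The cluster numbered 142 (chr13:21595440-21598393) was at 9.02 FPKM in lysate and 32.5 FPKM in the second pellet (1.67). The clusters numbered 143 and 144, which lie next to each other elsewhere on chromosome 13, were at 42.7 and 94.7 FPKM (1.06) and at 47.3 and 116 FPKM (1.21). The lowest ratio was that of the cluster numbered 129 (chr11:5428891-5442220), at 30.0 and 0.949 FPKM (-4.06), and the cluster numbered 43 on chromosome 5 was at 10.4 and 4.05 FPKM (-1.25). Of the 4 lower clusters, the 3 other than number 43 had too little data for a test in the authors' deposited table. The median over the clusters, taken in each library, was 28.4 FPKM in lysate and 34.5 FPKM in the second pellet.

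Assembled transcripts were spread more widely than named genes. Of 4922 such transcripts 4501 passed, 1139 stood higher (25.3%) and 547 lower (12.2%), and their median was 0.21. One at chr8:125348444-125349948 was at 2542 FPKM in lysate, 4506 in supernatant, 36186 in the first pellet and 83683.5 in the second pellet (4.97, q = 0.0495 in the authors' deposited table). One at chr5:28487481-28488509 was at 13.4 FPKM in lysate and 613 FPKM in the second pellet (5.35, q = 0.038 in the authors' deposited table). What these transcripts are was not examined.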
